A study of Homo sapiens with 14 samples.

Results

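The set described here is 41 genes of ribosome biogenesis and RNA polymerase I (Pol I), chosen by gene symbol from a written list of members and grouped by their role. All 41 were found among the 19143 genes counted in parental CHP-134 cells, and 40 among the 17810 genes counted in the OmoMYC experiment. DKC1 was not analysed here in the OmoMYC experiment, and BOP1 stands there under 2 identifiers, of which 1 passed the filter on low counts. All members with a main identifier passed that filter, so 40 and 41 members were tested. No member had a count of 0 in any library, and the lowest count was 213, for PPAN.

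Ribosomes are built in the nucleolus. Pol I transcribes the large rRNA precursor from the rDNA repeats, small nucleolar ribonucleoproteins (snoRNPs) guide its chemical modification, and assembly factors fold, cut and package it into the small and the large subunit. Genes of this pathway are long known as targets of MYC proteins, which bind the E-box CACGTG together with their partner MAX.

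CHP-134 is a human neuroblastoma line with amplified MYCN, the gene of N-MYC. OmoMYC is a mutated MYC dimerization domain that interferes with MYC proteins. In the first experiment, CHP-134 lines engineered separately with a lentiviral Tet-On construct for EGFP or for OmoMYC, and selected with G418, received 1 µg/ml doxycycline for 3 days (3 libraries of each). In the second, parental CHP-134 cells, which carry no engineered degradation tag, received 500 nM dTAG47, a ligand that degrades proteins fused to such a tag, or its vehicle DMSO for 18 h (4 libraries of each). The EGFP and OmoMYC groups thus share doxycycline, the vector and the selection but are separate lines, so line and transgene cannot be told apart. RNA was depleted of rRNA before sequencing, so the rRNA made by Pol I was not measured.

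The libraries held 28060817 to 38358128 counts in the OmoMYC experiment and 40861430 to 53451641 in the parental one. The neuroblastoma identity genes HAND2 and GATA3 lay above 200 CPM (counts scaled to a fixed library total after TMM normalization) in every library, whereas TH and DBH, of catecholamine synthesis, stayed below 1.5 CPM. The leukocyte marker PTPRC was at most 1.18 CPM. MYCN fell by 0.28 on the log2 scale with OmoMYC (SE 0.07, edgeR adjusted p = 0.0103), and the MYC row rose by 9.73, where reads of the endogenous gene and of the OmoMYC transgene cannot be told apart. The share of mitochondrially encoded genes was 2.54% to 3.36% with EGFP and 4.15% to 4.53% with OmoMYC, and their part in the results was not tested.

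The E-box was looked for in promoter windows that run from 250 bases before to 50 bases after a start site. RefSeq windows (GRCh38.p14) were matched by symbol to 32 of the 41 members. CACGTG, which reads the same on both strands, was present in a window of 13 of these 32 genes (40.6%), compared with 11.7% of 12452 genes of the OmoMYC table and 8.78% of all 27305 genes with a window. The 13 are DDX21, FBL, GNL3, LYAR, MYBBP1A, NAT10, NOP14, NOP2, PES1, PUS7, RRP9, UTP20 and WDR43. A match is a description of the letters and not a measured binding site. The sequences below show the 3 members of these 13 with the largest falls under OmoMYC. Each is 150 bases long, written 5′ to 3′ on the gene's own strand up to 12 bases past the annotated start, with the E-box in capitals. GNL3 (nucleostemin) lies on the plus strand at chr3:52685894-52686043, LYAR on the minus strand at chr4:4290010-4290159 and DDX21 on the plus strand at chr10:68956509-68956658.
GNL3: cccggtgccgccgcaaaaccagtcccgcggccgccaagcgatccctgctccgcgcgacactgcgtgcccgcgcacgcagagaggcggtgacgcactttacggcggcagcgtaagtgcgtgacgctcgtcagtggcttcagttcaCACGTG
LYAR: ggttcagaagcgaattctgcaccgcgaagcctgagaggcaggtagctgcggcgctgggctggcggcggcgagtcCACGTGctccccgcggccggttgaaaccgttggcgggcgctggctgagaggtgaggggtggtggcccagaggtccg
DDX21: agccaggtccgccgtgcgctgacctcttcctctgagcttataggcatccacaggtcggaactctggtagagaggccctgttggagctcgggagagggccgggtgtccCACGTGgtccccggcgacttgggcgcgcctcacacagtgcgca
The first base of the E-box lies at 7 after the start in GNL3, at -64 in LYAR and at -31 in DDX21. Of the 31 members with both a window and a test under OmoMYC, 7 of the 18 suppressed, 2 of the 4 induced and 4 of the 9 not called held CACGTG. The median log2 fold change was -0.19 for the 13 members with CACGTG and -0.26 for the 18 without it. Members with the E-box were therefore found among those that fell, those that rose and those that passed no threshold.

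The first question was how these genes responded to OmoMYC. Most fell: 23 of 40 members were suppressed at an edgeR false discovery rate (FDR) below 0.05, where 25.7% of all 13803 tested genes were suppressed. Another 5 members were induced, where 27.3% of all genes were, and 12 were not called. The median log2 fold change of the members was -0.22, compared with 0.01 over all genes. The suppressed members changed by -0.15 to -0.57 on the log2 scale, none of them past 1.5-fold, so the falls were many and modest. The induced members were led by UBTF, which went up 1.85-fold and was the only member past 1.5-fold. The count of induced members depended on single libraries, at 8 without EGFP replicate 3, 3 without EGFP replicate 2 or OmoMYC replicate 1, and 2 without OmoMYC replicate 3, and it was 1 once a trend on GC content and length was removed. All OmoMYC libraries lay below all EGFP libraries for 27 members (30.3% of all genes) and above them for 5 (32% of all genes). CPM are shares of a library, so RNA per cell was not measured, and in bulk RNA fewer cells of a kind and less RNA per cell cannot be told apart.

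**Figure D1:**
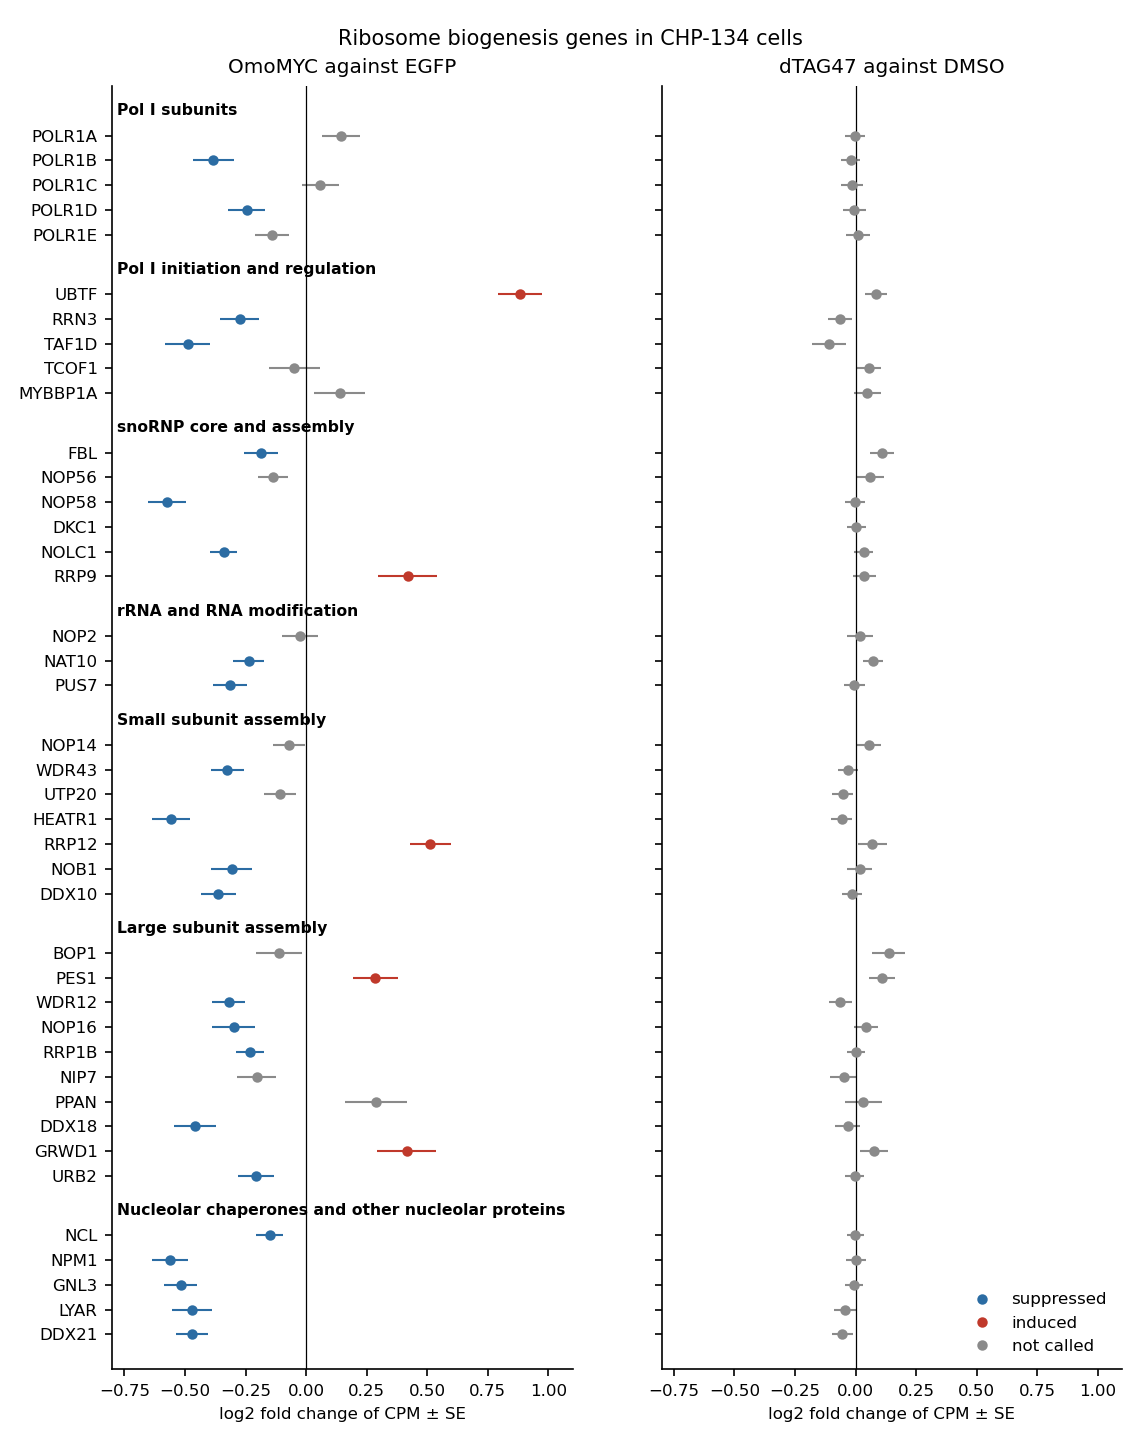
Log2 fold change of CPM (x axis, point ± SE from the edgeR fit) for each member, ordered by role, with OmoMYC against EGFP on the left (40 members, 3 libraries a group) and dTAG47 against DMSO on the right (41 members, 4 libraries a group). Blue and red points passed FDR 0.05: 23 members fell and 5 rose with OmoMYC, and none passed with dTAG47.

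Of the 5 Pol I subunits, 2 fell and 3 were not called. POLR1B, the second-largest catalytic subunit, measured 110, 92.1 and 95.7 CPM in the EGFP libraries and 78.6, 78.2 and 71.1 CPM in the OmoMYC libraries. POLR1D, an assembly subunit that Pol I shares with Pol III, measured 70.1, 68.9 and 61.2 CPM with EGFP and 56.2, 57.8 and 54.8 CPM with OmoMYC. For both genes the OmoMYC values were all under the EGFP values. POLR1B fell by 0.38 on the log2 scale (SE 0.08, edgeR adjusted p = 0.00341) and POLR1D by 0.25 (SE 0.08, adjusted p = 0.0207), but the POLR1D call was lost on leaving out EGFP replicate 2 or OmoMYC replicate 1 or 3.

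The other Pol I subunits passed no threshold with TMM scaling alone. POLR1A, the largest subunit, measured 302, 333 and 368 CPM with EGFP and 366, 358 and 382 CPM with OmoMYC, and the groups overlapped (log2 fold change 0.14, SE 0.08, edgeR adjusted p = 0.142). POLR1C, the partner of POLR1D and likewise shared with Pol III, measured 32.4, 33.5 and 33.8 CPM against 35.8, 35.4 and 32.6 CPM. POLR1E, a subunit that helps engage the initiation machinery, measured 70.3, 77.9 and 76.7 CPM against 68.5, 66.8 and 68.9 CPM. Its groups did not overlap, yet its log2 fold change of -0.14 did not pass (adjusted p = 0.119). With a trend on GC content and length removed, POLR1A (-0.23) and POLR1E (-0.17) were called suppressed (edgeR adjusted p = 1.27e-05 and 0.00331). POLR1C (0.05) was not called there.

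Factors that bring Pol I to the rDNA moved in opposite directions. UBTF encodes the upstream binding factor that holds rDNA in an open form. Its gene lies on chromosome 17 (hg19, 42282401 to 42298994, minus strand). UBTF measured 253, 299 and 324 CPM with EGFP and 524, 518 and 575 CPM with OmoMYC, so the lowest OmoMYC library was well above the highest EGFP library. Its log2 fold change was 0.88 (SE 0.09, edgeR adjusted p = 3.07e-05), the largest of any member, and it stayed called on leaving out each library in turn, between 0.78 and 0.93.

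RRN3 joins Pol I to the promoter-bound factors, which is a step at which growth signals act. It measured 163, 136 and 142 CPM with EGFP and 124, 124 and 117 CPM with OmoMYC. TAF1D, a subunit of the promoter selectivity factor SL1, measured 198, 170 and 154 CPM with EGFP and 130, 123 and 118 CPM with OmoMYC. In both genes the groups were separate and the call held on leaving out each library, with falls of 0.27 (SE 0.08, edgeR adjusted p = 0.0150) for RRN3 and 0.49 (SE 0.09, adjusted p = 0.00140) for TAF1D. With the trend on GC content and length removed these falls were 0.13 and 0.15.

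TCOF1 (treacle), a nucleolar scaffold that binds UBTF and Pol I, measured 262, 294 and 352 CPM with EGFP and 290, 268 and 320 CPM with OmoMYC. MYBBP1A, a nucleolar protein that restrains rDNA transcription, measured 196, 232 and 274 CPM with EGFP and 249, 249 and 274 CPM with OmoMYC. The EGFP libraries spanned the OmoMYC values in both genes, and neither was called (log2 fold changes -0.05 and 0.14).

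**Figure D2:**
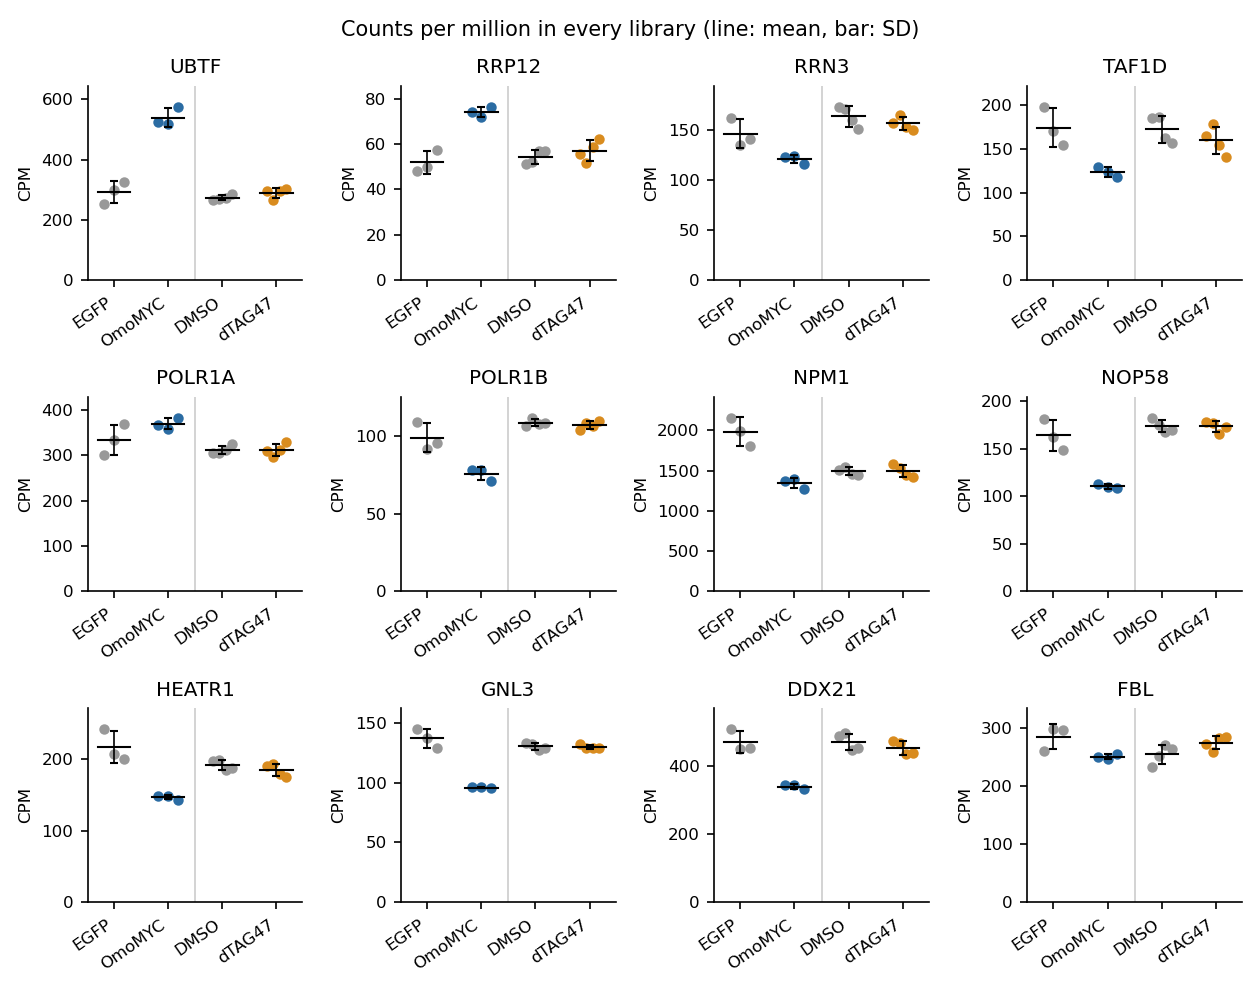
CPM (y axis, linear from 0) of 12 members in every library, with EGFP and OmoMYC left and DMSO and dTAG47 right of the grey line. Points are libraries, black lines the group means and bars ± SD. UBTF and RRP12 sat higher in all 3 OmoMYC libraries, NPM1, NOP58, HEATR1, GNL3 and DDX21 sat lower, and the DMSO and dTAG47 points overlapped in each gene.

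The other members of SL1 and of Pol I were read from a list of 136 further pathway genes. Among 13 further Pol I subunits and factors tested, 7 fell and 4 rose, where 25.7% and 27.3% of all genes did. The 7 falls held on leaving out each library, but the number of rises was 2 without EGFP replicate 2, OmoMYC replicate 1 or 2, and 1 (POLR2L) without OmoMYC replicate 3. POLR2F (0.21) was called in none of these 6 fits and POLR1F (0.29) in 1 of them. SL1 split with TMM scaling alone: TAF1C was the one SL1 subunit that rose, by 0.39 on the log2 scale (42.6 ± 4.5 against 55.8 ± 4.2 CPM, SD, n = 3, edgeR adjusted p = 0.00593, not called without OmoMYC replicate 3). With a trend on GC content and length removed, TAF1C was not called. With TMM scaling alone, TAF1A (-0.71), TAF1B (-0.48) and TBP (-0.39), named after their values were seen, fell together with TAF1D. POLR2L, a small subunit that all 3 nuclear polymerases share, rose by 0.75 (42.9 ± 7.8 against 72.2 ± 2.8 CPM). POLR1H fell by 1.11 but at under 3 CPM and under 2 identifiers, so its value is uncertain.

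Among snoRNP proteins, box C/D components fell by unequal amounts. NOP58, which with NOP56 and the rRNA methyltransferase FBL forms the core of box C/D snoRNPs, showed the largest fall of any member with TMM scaling alone (chromosome 2, hg19, 203130459 to 203168384, plus strand). It measured 181, 162 and 149 CPM with EGFP and 113, 110 and 108 CPM with OmoMYC, and the groups were far apart relative to their spread. Its fall was 0.57 on the log2 scale (SE 0.08, edgeR adjusted p = 0.000221). It was 0.33 once a trend on GC content and length was removed. In that fit BOP1 (-0.56), HEATR1 (-0.53), TCOF1 (-0.51) and NOB1 (-0.50) fell the most. Of these, BOP1 (-0.11) and TCOF1 (-0.05) were not called with TMM scaling alone, and BOP1 has the highest GC content of any member (65.6%). FBL fell by 0.19 (284 ± 22 against 250 ± 4.0 CPM, SD, n = 3, adjusted p = 0.0459), a call that was lost without EGFP replicate 2 or without any 1 of the OmoMYC libraries. NOP56 (178 ± 5.2 against 162 ± 1.3 CPM) had separate groups but was not called (adjusted p = 0.0811).

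NOLC1, a chaperone of snoRNPs, fell by 0.34 with little spread (530 ± 7.3 against 418 ± 4.2 CPM, SD, n = 3, edgeR adjusted p = 0.000621). RRP9, a protein specific to the U3 snoRNP of early rRNA cleavage, went the other way. It measured 29.3, 35.9 and 43.4 CPM with EGFP and 48.6, 47.0 and 49.6 CPM with OmoMYC. The OmoMYC libraries were all higher, but the EGFP libraries spread widely, and the rise of 0.42 (SE 0.12, adjusted p = 0.0143) was not called without EGFP replicate 2 or OmoMYC replicate 3.

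Of the modification enzymes, NAT10, which acetylates cytidines in rRNA, fell by 0.24 (160 ± 6.3 against 136 ± 0.58 CPM, SD, n = 3, edgeR adjusted p = 0.00961). PUS7, a pseudouridine synthase of tRNA and other RNAs, fell by 0.31 (173 ± 8.5 against 139 ± 6.0 CPM, adjusted p = 0.00330). NOP2, a methyltransferase of the large-subunit rRNA, was not called (104 ± 5.1 against 102 ± 5.7 CPM), and 95.8% of its exon bases also belong to a second annotated gene on the same strand.

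Of the 7 small subunit assembly factors, 4 fell, 1 rose and 2 were not called. HEATR1, a component of the early small subunit processome that also acts in Pol I transcription, measured 242, 207 and 200 CPM with EGFP and 149, 149 and 143 CPM with OmoMYC (chromosome 1, hg19, 236712305 to 236767816, minus strand). Its groups were far apart, and it fell by 0.56 (SE 0.08, edgeR adjusted p = 0.000270). DDX10, an RNA helicase, fell by 0.36, WDR43, a processome subunit, by 0.32, and NOB1, the nuclease that makes the final cut at the end of the small-subunit rRNA, by 0.31. The processome proteins NOP14 (log2 fold change -0.07) and UTP20 (-0.11) were not called.

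RRP12, which takes part in maturation and export of pre-ribosomes, was the small subunit factor that rose. It measured 48.2, 50.1 and 57.5 CPM with EGFP and 74.2, 71.8 and 76.4 CPM with OmoMYC. All OmoMYC libraries were above all EGFP libraries, with a rise of 0.51 (SE 0.08, edgeR adjusted p = 0.000554) that held on leaving out each library.

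Large subunit factors gave 5 falls, 2 rises and 3 members not called. DDX18, an RNA helicase, measured 186, 164 and 149 CPM with EGFP and 121, 126 and 116 CPM with OmoMYC, and fell by 0.46 (SE 0.09, edgeR adjusted p = 0.00143). WDR12 fell by 0.32, NOP16 by 0.30, RRP1B by 0.23 and URB2 by 0.21. URB2 lost its call without any 1 of the OmoMYC libraries. NIP7 (log2 fold change -0.20, adjusted p = 0.0534) and PPAN (0.29, adjusted p = 0.0817), both factors of large subunit maturation, did not pass.

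The 3 proteins of the PeBoW complex, which processes the large-subunit rRNA precursor, did not move together. PES1 measured 149, 170 and 196 CPM with EGFP and 211, 199 and 218 CPM with OmoMYC, a rise of 0.29 (SE 0.09, edgeR adjusted p = 0.0248) whose call was lost without EGFP replicate 2 or without any 1 of the OmoMYC libraries. WDR12 went from 109 ± 3.7 to 87.5 ± 2.7 CPM (SD, n = 3, adjusted p = 0.00266), and BOP1 was not called (15.6 ± 1.5 and 14.4 ± 0.32 CPM, log2 fold change -0.11). GRWD1, a chaperone of a large-subunit ribosomal protein, measured 33.4, 43.0 and 49.3 CPM with EGFP and 58.0, 52.8 and 56.8 CPM with OmoMYC. Its groups were separate, but the rise of 0.42 (SE 0.12, adjusted p = 0.0158) was not called without OmoMYC replicate 1 or replicate 3.

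With TMM scaling alone, the nucleolar proteins were the one role group with every member called suppressed, 5 of 5, where 25.7% of all genes were. The count was 4 without EGFP replicate 2 or without OmoMYC replicate 1 or 2. With a trend on GC content and length removed, all 3 modification enzymes were suppressed as well, where 39.9% of all genes were. There the nucleolar median was -0.28, against -0.47 without the offsets, and that of all members was -0.26. NPM1, the histone chaperone that fills the outer layer of the nucleolus and helps export subunits, had the highest level of any member per kilobase of its canonical transcript (1503 CPM per kb with EGFP). It measured 2155, 1995 and 1801 CPM with EGFP and 1366, 1390 and 1275 CPM with OmoMYC (chromosome 5, hg19, 170814120 to 170838814, plus strand). The lowest EGFP library was above the highest OmoMYC library, and NPM1 fell by 0.56 (SE 0.07, edgeR adjusted p = 0.000156).

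GNL3, a nucleolar GTPase of proliferating cells, measured 145, 137 and 129 CPM with EGFP and 95.9, 96.0 and 95.1 CPM with OmoMYC. LYAR, a nucleolar zinc finger protein, measured 36.3, 32.1 and 33.4 CPM with EGFP and 25.6, 23.9 and 23.9 CPM with OmoMYC. DDX21, a helicase that joins Pol I transcription to rRNA processing, measured 509, 452 and 453 CPM with EGFP and 344, 344 and 332 CPM with OmoMYC. These 3 genes, whose promoter letters are printed above, had separate groups and fell by 0.52, 0.47 and 0.47 (edgeR adjusted p = 0.000162, 0.000883 and 0.000251). NCL (nucleolin), the next highest per kilobase after NPM1, fell least (1102 ± 29 against 993 ± 15 CPM, SD, n = 3, log2 fold change -0.15, adjusted p = 0.0415), and its call was lost without EGFP replicate 2 or without OmoMYC replicate 1 or 2.

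The direction of a member went with the base composition of its transcript. GC content of the canonical transcript had a median of 43.0% over the 23 suppressed members (38.6% to 57.2%) and of 58.5% over the 5 induced members (55.1% to 60.7%). Over all genes, it was 42.1% for those suppressed and 56.2% for those induced. Within the EGFP group, the CPM of all 5 induced members also rose from replicate 1 through 2 to 3, while suppressed members went both ways. Whether that spread goes with GC content was not tested. With a trend on GC content and length removed from each library, 32 members were suppressed and 1, UBTF, was induced, against 23 and 5 without it. In that fit 39.9% of all genes were suppressed and 22.1% induced, and the median of all genes moved from 0.01 to -0.08. UBTF kept a rise of 0.53 (edgeR adjusted p = 1.03e-10), and all 23 suppressed members were also suppressed in that fit, by 0.11 to 0.53 on the log2 scale. The fall was smaller there for 14 of the 23, and over 1.5 times smaller for 10. These 10 were TAF1D (-0.15), WDR43 (-0.14), POLR1D (-0.11), RRN3 (-0.13), NPM1 (-0.28), NOP58 (-0.33), DDX18 (-0.26), LYAR (-0.27), GNL3 (-0.31) and PUS7 (-0.19). HEATR1 (-0.53) and POLR1B (-0.39) stayed close to their values without the offsets. RRP12 (0.08), RRP9 (0.09), PES1 (-0.03) and GRWD1 (-0.05) were no longer called. POLR1A (-0.23) and MYBBP1A (-0.33) were called suppressed, with the sign opposite to the fit without the trend. TCOF1 (-0.51, 59.2% GC) and BOP1 (-0.56, 65.6% GC) were called suppressed as well. So were NOP2 (-0.29), NOP14 (-0.27), NOP56 (-0.25), POLR1E (-0.17) and UTP20 (-0.12), which TMM scaling alone did not call. The 4 smaller rises were thus not called once the trend was removed, and the UBTF rise was called in both fits.

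**Figure D3:**
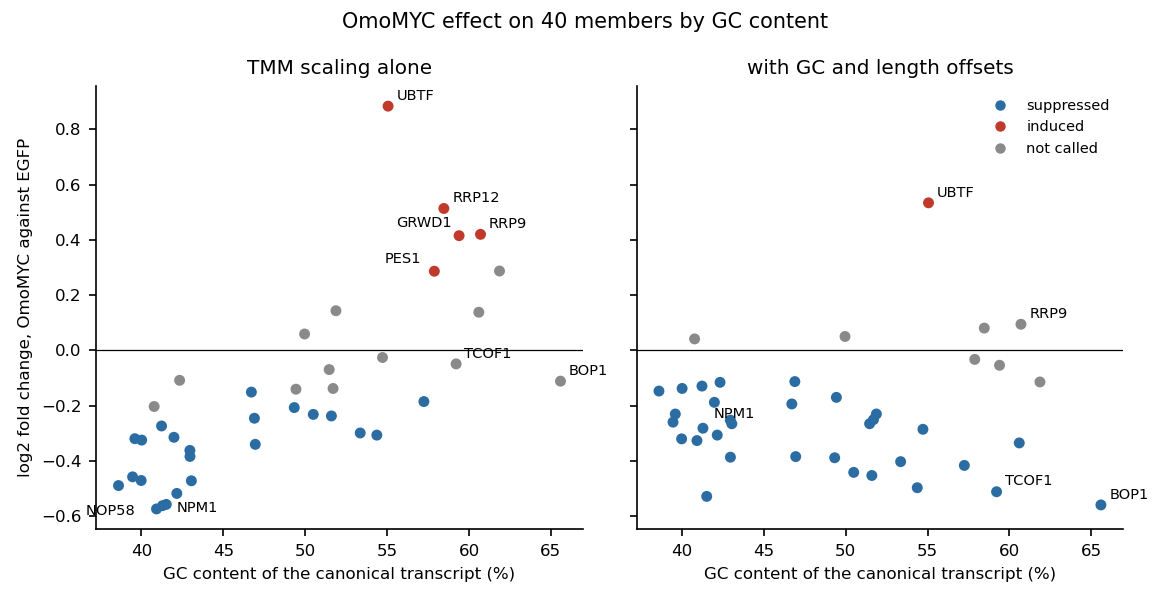
GC content of the canonical transcript (x axis, %) against the log2 fold change with OmoMYC (y axis) for 40 members, with TMM scaling alone (left) and with a trend on GC content and length removed (right). The 5 induced members on the left lie at or above 55.1% GC, and UBTF is the red point that remains on the right at 0.53.

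A further limit concerns overlapping genes, since the use of strand in counting is not given in the sources used here. Exons of other genes cover 57.7% of the PPAN exon bases on the same strand, and on the opposite strand 25% of those of NOB1, 24.8% of HEATR1 and 13.7% of NOP58.

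The wider pathway also gave more falls than rises. Of 135 identifiers tested from the 136 further genes, 70 fell and 10 rose, with a median log2 fold change of -0.21, where 25.7% and 27.3% of all genes did. The falls numbered 58 to 78 on leaving out each library. The rises numbered 4 without OmoMYC replicate 1 or 2 and 3 without EGFP replicate 2 or OmoMYC replicate 3. The RNA exosome and rRNA trimming list had 11 falls and 1 rise among 15, and other large subunit factors 21 and 1 among 46. Other small subunit factors had 22 and 4 among 40, and other snoRNP proteins and assembly factors 7 and 0 among 12. Other rRNA modification enzymes had 2 and 0 among 9, a share of falls near that of all genes. These 2 include METTL5. METTL5, which methylates an adenosine of the small-subunit rRNA, fell by 0.88 (39.4 ± 4.9 against 21.4 ± 1.2 CPM, SD, n = 3, edgeR adjusted p = 6.88e-05). TMA16, a large subunit factor, fell by 0.76 (64.4 ± 10 against 38.0 ± 1.8 CPM), and DHX37, a helicase of the small subunit processome, rose by 0.54 (72.6 ± 13 against 106 ± 6.2 CPM). The falls of METTL5 and TMA16 are given with TMM scaling alone. With the trend on GC content and length removed, DHX37 (0.06) and TAF1C (-0.09) were not called, and POLR2L rose by 0.49. List medians moved nearer 0 for the exosome (-0.36 to -0.18), Pol I (-0.28 to -0.13) and small subunit lists (-0.22 to -0.20). They moved further from 0 for the modification enzymes (-0.13 to -0.34), large subunit (-0.19 to -0.24) and snoRNP lists (-0.25 to -0.28). For comparison, with TMM scaling alone 5 of 18 Pol III genes fell and 2 rose (median -0.04). Of 7 genes specific to Pol II, 2 fell and 2 rose (median -0.02). These shares of falls were near that of all genes. With the trend removed, 10 of 17 Pol III genes fell and 1 rose (median -0.14), and 3 of 7 Pol II genes fell and 0 rose (median -0.11). In that fit 97 of 128 further pathway identifiers fell and 4 rose (median -0.22), where 39.9% and 22.1% of all genes did.

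The second question was whether dTAG47 itself changed these genes in cells that have no tagged protein. In the fit on group alone, edgeR's quasi-likelihood test called no member in either direction among 41. There 0.0415% of 14470 genes were suppressed and 0.117% were induced. A fit with a factor for replicates is given below. At an unadjusted edgeR p below 0.05 there was 1 member, FBL, where 7.28% of all genes had such a p. Log2 fold changes ran from -0.11 for TAF1D to 0.14 for BOP1, with a median of 0.0012. No member had groups of libraries that did not overlap, where 3.34% of all genes did. The 95% intervals of all 41 members lay between -0.26 and 0.28. Each interval was computed for its gene separately, so their outer ends are not a joint bound for the set.

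The Pol I members showed how close the groups were. POLR1A measured 305, 305, 312 and 325 CPM with DMSO and 309, 296, 312 and 329 CPM with dTAG47. POLR1B measured 107, 112, 108 and 109 CPM with DMSO and 104, 108, 107 and 110 CPM with dTAG47. POLR1C measured 35.9, 35.5, 36.4 and 37.3 CPM with DMSO and 37.0, 36.0, 35.6 and 34.9 CPM with dTAG47. In these subunits the ranges overlapped and the log2 fold changes were between -0.02 and -0.0023. POLR1D measured 53.3, 56.6, 50.9 and 53.8 CPM with DMSO and 55.2, 52.3, 54.3 and 52.3 CPM with dTAG47. POLR1E measured 73.1, 75.8, 68.4 and 72.7 CPM with DMSO and 75.8, 67.4, 74.0 and 75.2 CPM with dTAG47. Both likewise overlapped.

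UBTF, the member with the largest OmoMYC effect, measured 266, 269, 274 and 287 CPM with DMSO and 297, 266, 295 and 302 CPM with dTAG47. Here 3 of 4 dTAG47 libraries were above all DMSO libraries, and the log2 fold change was 0.08 (SE 0.05, edgeR adjusted p = 0.677). RRN3 measured 174, 171, 160 and 152 CPM with DMSO and 157, 166, 154 and 151 CPM with dTAG47. TAF1D measured 185, 186, 162 and 156 CPM with DMSO and 165, 178, 155 and 141 CPM with dTAG47. In TAF1D replicates 1 and 2 were above replicates 3 and 4 in both groups. TCOF1 measured 216, 210, 224 and 232 CPM with DMSO and 229, 207, 235 and 246 CPM with dTAG47. MYBBP1A measured 215, 213, 233 and 238 CPM with DMSO and 226, 211, 244 and 251 CPM with dTAG47, and here replicates 3 and 4 were the higher ones in both groups.

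With a factor for replicates 1 and 2 against 3 and 4, which the labels do not name as a batch, 3 members (7.32%) were called, where 5.49% of all genes were, a share near the background. TAF1D fell by 0.11 (edgeR adjusted p = 0.0385), and FBL rose by 0.11 (adjusted p = 0.0260). PES1 rose by 0.11 (adjusted p = 0.0423). FBL measured 232, 251, 271 and 263 CPM with DMSO and 272, 259, 282 and 284 CPM with dTAG47. PES1 measured 157, 155, 173 and 170 CPM with DMSO and 179, 161, 176 and 190 CPM with dTAG47. Within replicates 1 and 2 the log2 ratio of group means was -0.11 for TAF1D, 0.14 for FBL and 0.13 for PES1, and within replicates 3 and 4 it was -0.11, 0.09 and 0.09. These 3 were chosen by that fit, so the ratios are a description. With the GC and length offsets in place of the factor, the log2 fold changes were -0.05 for TAF1D, 0.07 for FBL and 0.07 for PES1 (edgeR adjusted p of 0.561, 0.372 and 0.374). DKC1, the pseudouridine synthase of box H/ACA snoRNPs, was measured in this experiment alone, at 198 ± 5.3 CPM in each group (SD, n = 4). Of the 136 further pathway genes, none was called with dTAG47 in the fit without the factor, and 4 had an unadjusted p below 0.05 by edgeR.

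**Figure D4:**
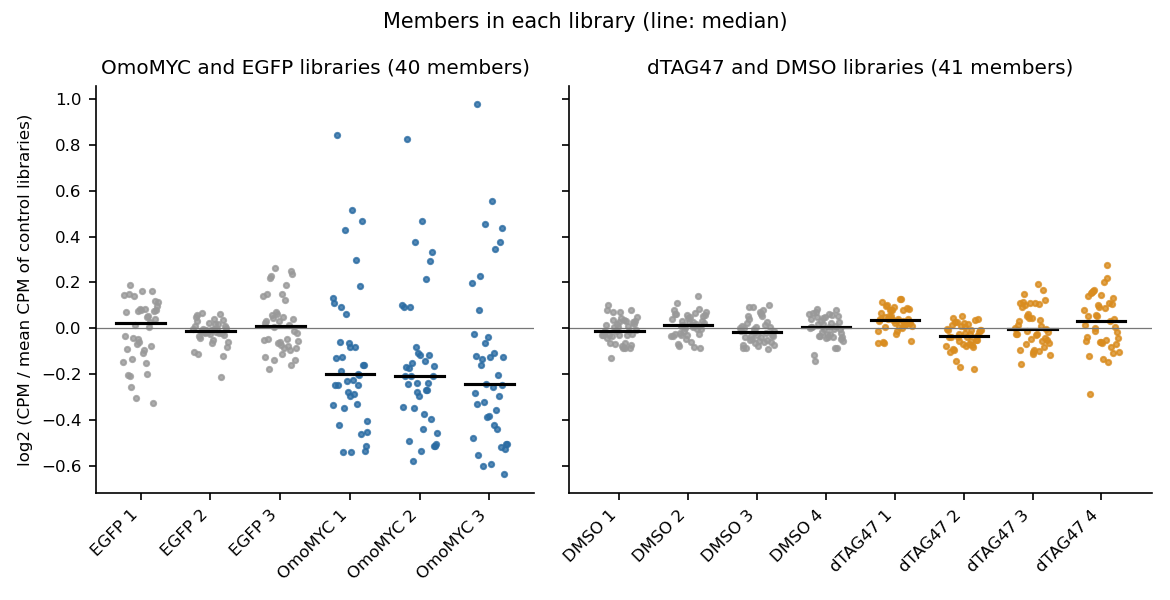
Log2 ratio of CPM to the mean of the control libraries (y axis) for the members in each library, with 40 members in the OmoMYC experiment (left) and 41 in the parental one (right). Points are members and black lines are medians, which lie near -0.20, -0.21 and -0.24 in the OmoMYC libraries and between -0.03 and 0.03 in the dTAG47 libraries.

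The OmoMYC and dTAG47 effects were then compared in a single fit over all 14 libraries, as the difference between the 2 log2 fold changes. They differed for 27 of 40 members at an edgeR FDR below 0.05, where 43.7% of 14525 genes did. The largest differences were 0.76 for UBTF (SE 0.10, adjusted p = 1.08e-05), -0.61 for NOP58 (SE 0.08) and -0.60 for NPM1 (SE 0.08). All 5 nucleolar proteins, POLR1B, POLR1D, UBTF, RRN3 and TAF1D were among the 27, and so was NOP56 (-0.24, adjusted p = 0.0340), which neither comparison called alone. POLR1A, POLR1C, POLR1E, TCOF1, MYBBP1A, NOP2, NOP14, UTP20, BOP1, NIP7 and PPAN were not among them, nor were PES1 and GRWD1, whose differences were 0.14 (SE 0.11) and 0.30 (SE 0.14). The treatments differed in agent, time, serum and line, so none of these can be told apart in that difference.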

How the data were processed

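The 14 RNA-seq libraries of CHP-134 cells comprised EGFP and OmoMYC lines (3 each) and parental cells with DMSO or dTAG47 (4 each). After trimming by Cutadapt and STAR alignment to hg19, the authors deposited the raw gene counts that featureCounts gave. The annotation and the strand setting are not given in the sources used here. The deposited counts were tested with edgeR 4.0.16 in R 4.3.3: filterByExpr, TMM scaling, the robust quasi-likelihood test and Benjamini-Hochberg adjustment over all tested genes at 0.05. CPM use TMM-scaled library sizes, with a prior count of 2 for log2 CPM.

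The members, lists and tests were chosen with earlier results of these data known. All 41 members could be named. Values in every library are given for the 10 largest called OmoMYC changes, members called against the majority, and Pol I subunits and initiation factors. From the pathway lists, the 3 largest called falls and rises are named. Promoters are printed for the 3 most suppressed members that hold CACGTG. Transcript length and GC content come from the canonical transcript in GENCODE lifted to GRCh37, the sequence of hg19, found for 16960 of 17810 and 18616 of 19143 identifiers. The single fit over both experiments used the 17227 identifiers that they share.

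The alternatives were DESeq2 1.42.0 (the study's tool), limma-voom 3.58.1, RLE and upper quartile factors, library size alone, 2 filters, glmTreat at 1.5-fold, a replicate block, GC and length offsets, both together, leaving out each library, and, in parental cells, a factor for replicates 1 and 2 against 3 and 4 and each pair alone. The fits were tested on simulated data.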

Additional observations from a re-analysis of the deposited data

Results flagged for a closer look

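In the parental experiment, 82 groups of 4 libraries were tested for a library that stood apart (Dixon's criterion for 4 samples), of which chance flags about 1 in 20, and 2 were found. RRP9, the U3 snoRNP protein, measured 50.2 CPM in dTAG47 replicate 2, while the other dTAG47 libraries measured 53.0 to 53.3 CPM. GNL3 measured 132 CPM in dTAG47 replicate 1, while the other dTAG47 libraries measured 129 CPM. Both values lie within the range of the DMSO libraries for that gene.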

How the results depend on the processing

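With OmoMYC, the count of suppressed members stayed between 19 and 32 in every alternative but one, and the median stayed negative throughout. The exception was glmTreat at 1.5-fold, which called 0 members suppressed and 1 induced, and 0 members whose OmoMYC and dTAG47 effects differed. The median was -0.24 with upper quartile factors, -0.26 with GC and length offsets and -0.26 with the replicate block added to these, and it ranged from -0.27 to -0.22 on leaving out each library. The count of induced members was 1 with the offsets and 1 with the offsets and the replicate block, and it ranged from 2 to 8 on leaving out each library. With the offsets, POLR1A (-0.23), MYBBP1A (-0.33), PES1 (-0.0325) and GRWD1 (-0.0538) turned from higher to lower, and likewise with the replicate block added (-0.23, -0.33, -0.0314 and -0.0533).

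With dTAG47, the median lay near 0 and changed sign: -0.000731 with DESeq2, -0.0011 with RLE factors, -0.0093 with library size alone, -0.000601 without the filter, -0.00237 in replicates 1 and 2 alone, and -0.010 to 0.015 on leaving out each library. The counts of 0 suppressed and 0 induced became 1 and 2 with the factor for replicates 1 and 2 against 3 and 4, and 1 and 1 in replicates 3 and 4 alone. A replicate block gave 1 and 2 in parental cells, 0 and 0 there once the GC and length offsets were added, and 24 and 6 with OmoMYC. Same-numbered libraries deviated together with r = 0.076, -0.070 and 0.29 with OmoMYC and 0.0093, 0.11, 0.10 and 0.16 in parental cells. No r was computed for differently numbered libraries, so these values cannot decide whether the numbers pair libraries. The main fits did not pair them. The causes of these changes were not tested. PPAN, at 213 to 417 counts in the OmoMYC experiment, is the member that depth limits most.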

Other observations

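The members are among the more highly counted genes of these cells. Their mean CPM had a median percentile of 87.8 among tested genes in the OmoMYC experiment and of 90.9 in parental cells, and the lowest, PPAN, stood at 31.4 and 36.1. The annotation marks 11 of the 41 members as hosts of noncoding RNAs, whose kind was not looked up here. Of the 10 hosts tested with OmoMYC, 5 fell (TAF1D, NOP58, WDR43, NCL and GNL3), 2 rose (UBTF and RRP12) and 3 were not called (POLR1C, NOP56 and PPAN). Over all members tested, 23 of 40 fell and 5 rose, and over all genes 25.7% and 27.3% did. The hosted RNAs themselves were not analysed here.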
